A study of Mus musculus with 16 samples.

Results

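The interferon regulatory factors examined here are 8 genes of a transcription factor family (Irf1, Irf2, Irf3, Irf4, Irf5, Irf7, Irf8 and Irf9). They were picked by family name, with earlier results of these data known. All 8 were measured, each by 1 probe, among 20629 features tested on the array. The study compared the lungs of 2 groups of male C57/BL6 mice, 8 weeks old. The first group inhaled lipopolysaccharide (LPS) as an aerosol for 5 days and was sampled when the last inhalation ended. The other breathed air for the same number of days. LPS forms the outer leaflet of the outer membrane in Gram-negative bacteria. Whole-lung RNA of 3 animals was pooled, giving 4 LPS pools and 4 air pools. Each pool was hybridised against a commercial universal mouse reference RNA on 2 two-colour arrays, with the dyes exchanged between them. Every level below is log2(lung/reference) of a pool. Every difference is LPS minus air on that scale, given with its standard error (SE), over 4 pools per group unless stated. Fits without some pools rest on fewer, and fits within 1 version of the image-analysis program on 2 pools per group. In pooled whole-lung RNA, a change in the number of cells of a type and a change in RNA per cell cannot be told apart.

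Interferon regulatory factors bind DNA through a shared N-terminal domain that recognises repeats of the GAAA core, the interferon-stimulated response element (ISRE). IRF3 and IRF7 lie dormant in the cytoplasm until kinases downstream of pattern receptors phosphorylate them, and then switch on type I interferon genes, whereas IRF5 acts downstream of MYD88 on inflammatory cytokine genes. IRF9 is the DNA-binding subunit of ISGF3, the complex of STAT proteins that carries the type I interferon signal to its target genes. IRF1 is induced by interferon gamma and NF-κB and activates antigen presentation and guanylate-binding protein genes, and IRF2 competes with it for the same sites. IRF4 and IRF8 are factors of lymphoid and myeloid cells that bind DNA with partners such as PU.1 and BATF.

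The promoter stretches of Irf1 and Irf7, the members past the test, are shown with those of Irf2 and Irf8, the other members whose promoters held one of the motifs searched. Each is the 250 bases before a RefSeq transcription start (for Irf1 and Irf8, the one of several whose window held matches) on build GRCm38.p6, written 5′ to 3′ along the gene, with motif matches in capitals.
Irf1, chr11:53769764-53770013, plus strand: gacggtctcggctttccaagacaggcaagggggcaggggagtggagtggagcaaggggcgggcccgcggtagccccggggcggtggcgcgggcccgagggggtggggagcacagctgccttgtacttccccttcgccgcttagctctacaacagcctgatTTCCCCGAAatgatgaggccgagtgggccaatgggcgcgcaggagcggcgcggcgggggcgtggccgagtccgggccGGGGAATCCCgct
Irf2, chr8:46739495-46739744, plus strand: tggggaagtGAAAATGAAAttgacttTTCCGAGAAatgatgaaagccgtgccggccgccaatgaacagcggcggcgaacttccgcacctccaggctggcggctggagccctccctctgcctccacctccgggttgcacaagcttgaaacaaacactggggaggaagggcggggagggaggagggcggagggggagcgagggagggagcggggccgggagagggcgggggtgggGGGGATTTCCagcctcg
Irf7, chr7:141266425-141266674, minus strand: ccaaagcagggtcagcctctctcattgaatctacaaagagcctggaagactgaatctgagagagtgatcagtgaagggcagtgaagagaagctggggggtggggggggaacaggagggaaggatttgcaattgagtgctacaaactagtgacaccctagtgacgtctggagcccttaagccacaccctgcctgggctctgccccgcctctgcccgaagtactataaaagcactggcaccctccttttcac
Irf8, chr8:120736108-120736357, plus strand: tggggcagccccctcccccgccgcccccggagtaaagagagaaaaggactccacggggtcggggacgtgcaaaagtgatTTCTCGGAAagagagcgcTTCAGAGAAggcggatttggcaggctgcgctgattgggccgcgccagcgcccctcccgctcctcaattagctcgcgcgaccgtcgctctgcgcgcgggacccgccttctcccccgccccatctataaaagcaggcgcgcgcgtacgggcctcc

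Windows from 250 bases before to 50 after each start were searched on both strands for 3 motifs. These were the ISRE core GAAANNGAAA, the STAT-binding element GAS as TTCNNNGAA, and the NF-κB consensus. Irf1 held a GAS match from -90 to -82 (TTCCCCGAA) and an NF-κB match from -13 to -4 (GGGGAATCCC), counted from the start. Irf2 held an ISRE match from -241 to -232, a GAS match from -224 to -216 and an NF-κB match from -17 to -8. Irf8 held a GAS match from -171 to -163 and a second from -153 to -145. No 2 matches in these genes shared a base. The windows of Irf3, Irf4, Irf5, Irf7 and Irf9 held none of these letters. Over all 27025 genes with a window, 3.99% held the ISRE core, 9.55% the GAS element and 5.14% the NF-κB consensus. Such matches describe letters in a window and not occupied sites.

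Positive signal in both channels was found on 97.2% to 99.5% of spots per array used, and how precise a value is depends on how many arrays there were. Of the 16 arrays deposited, 15 were used, because the Cy3-lung file for air pool 4 joins the Cy3 image of its own array to the Cy5 image of the array of air pool 3 with lung in Cy5. Air pool 4 therefore rests on 1 array, on which a dye effect does not cancel. LPS pools 1 and 2 and air pools 3 and 4 were quantified with version 2.2.3 of the image-analysis program, the other 4 pools with version 2.2.4. A difference within a version thus compares 2 LPS pools with 2 air pools, and in version 2.2.3 air pool 4 is 1 of them. The scanned images are named for week 1 on all LPS arrays, week 4 on those of air pools 1 and 2 and week 8 on those of air pools 3 and 4. The sample titles give 1 week for both groups, so the image names of the air arrays differ from their titles. What the number in the image names counts is not stated in the labels or headers. Its effect and that of the exposure cannot be told apart. The placement of gene names on the spots is a fixed formula of grid row and column, which was not derived in the fits given here. With it, values of paired probes for the same gene had r = 0.522 (1030 genes) in air pools. The value was 0.0432 (1026 genes) with the spots as numbered. If the formula was first worked out from these data, that correlation is no independent check of it.

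Irf1 and Irf7 were higher in LPS lungs, and the other 6 members did not pass the test. Over all features, 5.95% were called higher and 0.713% lower at a Benjamini-Hochberg adjusted p under 0.05 (limma), 6.67% in all, against 2 members higher and 0 lower. At an unadjusted p under 0.05 there were 5 members, Irf1, Irf2, Irf5 and Irf7 on the higher side and Irf4 on the lower, against 22.5% of all features, 14.8% higher and 7.72% lower. The median difference of the 8 members was 0.56, and that of all features 0.01. The LPS pools lay wholly above the air pools for Irf1 and Irf2, as for 11.3% of features with a value in every pool, and wholly below them for Irf4, as for 5.44%. The pools overlapped for the other 5 members. Within the version 2.2.3 pools, where 23.1% of features were called, the members called were Irf1 and Irf2, and within those of version 2.2.4, where 5.58% were, Irf5 and Irf7. The features include probes with no gene symbol. In a fit over the 8 pools on named genes alone, 1219 of 16481 were called higher and 166 lower. The members called in it were again Irf1 and Irf7.

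**Figure D1:**
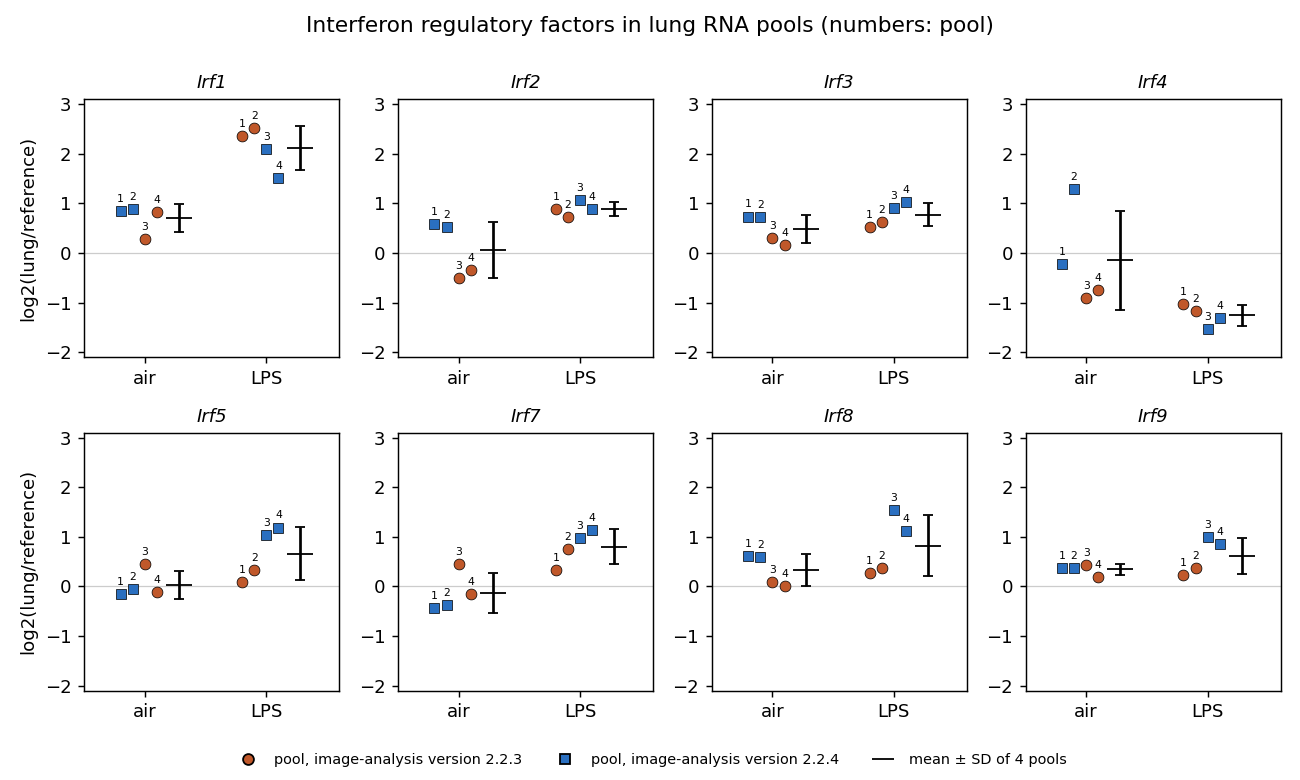
Level of each interferon regulatory factor in every pool, as log2(lung/reference) on the vertical axis, with air and LPS pools side by side, pool numbers beside the points, colours and shapes for the version of the image-analysis program, and bars for the mean ± SD of 4 pools. Irf1 separates the groups most widely (LPS pools 1.51 to 2.53, air pools 0.28 to 0.88), and air pool 2 stands apart for Irf4 at 1.29.

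Irf1, the interferon gamma-inducible activator, was at 2.35, 2.53, 2.1 and 1.51 in LPS pools 1 to 4 and at 0.85, 0.88, 0.28 and 0.82 in air pools 1 to 4. Every LPS pool lay above every air pool, and air pool 3 was the lowest of all. The means were 2.12 ± 0.44 and 0.71 ± 0.29 (SD, n = 4 pools each). Irf1 thus rose 2.66-fold, by 1.41 ± 0.23 with a 95% interval of 0.91 to 1.92 (limma adjusted p = 0.0052), a difference above that of 98.9% of features. The 8 fits that left out 1 pool each gave 1.27 to 1.62 and all kept the call. Its rise was 1.89 ± 0.22 within the version 2.2.3 pools and 0.94 ± 0.21 within those of version 2.2.4, where it did not pass (limma adjusted p = 0.074). The term for the difference between versions did not pass either (-0.95 ± 0.33, adjusted p = 0.0976). Lung signal for Irf1 was between 4.34 and 108 times the local background.

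Irf7, the interferon-inducible member that amplifies type I interferon production, was at 0.34, 0.76, 0.99 and 1.13 in LPS pools 1 to 4. In air pools 1 to 4 it was at -0.43, -0.37, 0.46 and -0.15. Air pools 1, 2 and 4 lay below all LPS pools, and air pool 3 lay above LPS pool 1. Irf7 rose 1.90-fold, by 0.93 ± 0.23 with a 95% interval of 0.42 to 1.44 (limma adjusted p = 0.0389). The call was lost in 6 of the 8 fits without 1 pool, with values of 0.82 to 0.94. These were the fits without LPS pools 2, 3 or 4 and without air pools 1, 2 or 4 (adjusted p between 0.0791 and 0.102). The call was also lost with all 16 arrays (0.97, adjusted p = 0.0702). Within the version 2.2.4 pools the rise was 1.46 ± 0.10 (limma adjusted p = 0.00844), and within those of version 2.2.3 the difference was 0.39 ± 0.24 (adjusted p = 0.262). The difference between versions was 1.06 ± 0.31 and did not pass (adjusted p = 0.0661). Irf7 read higher with lung in Cy3 than in Cy5 in all 7 pools with both arrays, by 0.08 to 0.64, and air pool 4 was read in Cy5 alone.

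Irf3, the constitutively made partner of IRF7 in the induction of interferon beta, was at 0.53, 0.63, 0.91 and 1.02 in LPS pools 1 to 4 and at 0.74, 0.72, 0.31 and 0.17 in air pools 1 to 4. The groups overlapped, and within each version the LPS pools lay above the air pools. The difference of 0.29 ± 0.18 did not pass (95% interval -0.10 to 0.68, adjusted p = 0.366), and it was 0.34 and 0.24 within the versions. Without air pool 4, which was read on 1 array, it was 0.18. A rise above 0.68 thus lay outside the interval for Irf3.

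Irf5, which acts downstream of MYD88 in macrophages and dendritic cells, was at 0.09, 0.32, 1.04 and 1.19 in LPS pools 1 to 4. The air pools 1 to 4 gave -0.15, -0.06, 0.46 and -0.11. LPS pools 3 and 4 were above all air pools, whereas LPS pools 1 and 2 lay below air pool 3. The overall difference was 0.62 ± 0.25 (95% interval 0.06 to 1.19, limma adjusted p = 0.183). It was 0.03 ± 0.22 within version 2.2.3 and 1.21 ± 0.11 within version 2.2.4 (adjusted p = 0.0124), and the difference between the versions, 1.18 ± 0.28, passed the test (adjusted p = 0.0399). Of all features, 8.69% had such a difference between versions past the threshold.

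Irf9, the DNA-binding subunit of ISGF3, was at 0.24, 0.37, 1.0 and 0.86 in LPS pools 1 to 4 and at 0.38, 0.37, 0.43 and 0.19 in air pools 1 to 4. The air pools lay close together (SD 0.10), and LPS pools 1 and 2 fell among them while pools 3 and 4 lay above. The difference was 0.27 ± 0.18 (95% interval -0.13 to 0.67, limma adjusted p = 0.4), and without LPS pool 3 it was 0.15. Within version 2.2.4 it was 0.55 and within version 2.2.3 -0.01, and neither passed.

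Irf2, the antagonist of IRF1 at shared sites, was at 0.88, 0.72, 1.06 and 0.90 in LPS pools 1 to 4. In air pools 1 to 4 it was at 0.58, 0.53, -0.50 and -0.34. The LPS pools were tightly grouped (SD 0.14), and the air pools split by version, with both pools of version 2.2.3 below 0. The difference of 0.82 ± 0.25, or 1.77-fold, did not pass (95% interval 0.28 to 1.37, limma adjusted p = 0.0797). With the version as a block it passed (0.82 ± 0.17, adjusted p = 0.0139), which made 3 of 8 members called in that fit, against 11.0% of all features. It also passed in the fits without air pool 1 (0.99, adjusted p = 0.0395) or air pool 2 (0.97, adjusted p = 0.0455). The difference was 1.22 ± 0.18 within version 2.2.3 and 0.43 ± 0.11 within version 2.2.4, and the difference between these passed (-0.79 ± 0.20, limma adjusted p = 0.0458).

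Irf8, required for monocyte and dendritic cell development, was at 0.26, 0.38, 1.55 and 1.11 in LPS pools 1 to 4 and at 0.62, 0.60, 0.09 and 0.02 in air pools 1 to 4. The groups overlapped, since LPS pools 1 and 2 lay below air pools 1 and 2. Within each version the LPS pools lay above the air pools. The difference of 0.49 ± 0.28 did not pass (95% interval -0.14 to 1.13, limma adjusted p = 0.336), and without LPS pool 3 it was 0.25. With the version as a block its SE was 0.15 and the adjusted p was 0.0573.

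Irf4, a factor of B cells, plasma cells, T cells and some dendritic cells and macrophages, was the only member with a negative difference. It was at -1.02, -1.16, -1.52 and -1.31 in LPS pools 1 to 4 and at -0.23, 1.29, -0.91 and -0.75 in air pools 1 to 4. All LPS pools lay below all air pools, and air pool 2 stood far above the rest. The difference was -1.10 ± 0.41 (95% interval -2.01 to -0.20, limma adjusted p = 0.144), at percentile 0.141 of all features. It was -0.26 within version 2.2.3 and -1.95 within version 2.2.4 (interaction adjusted p = 0.0875). The 2 arrays of air pool 2 gave 2.87 with lung in Cy3 and -0.29 with lung in Cy5. Without the former, a setting chosen after the values were seen, the difference was -0.71 ± 0.19 and passed (adjusted p = 0.0473). Without air pool 2 altogether it was -0.62 and did not pass (adjusted p = 0.101). Irf4 was also the dimmest member, with a median lung signal of 6.39 times the local background and a lowest of 2.29.

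**Figure D2:**
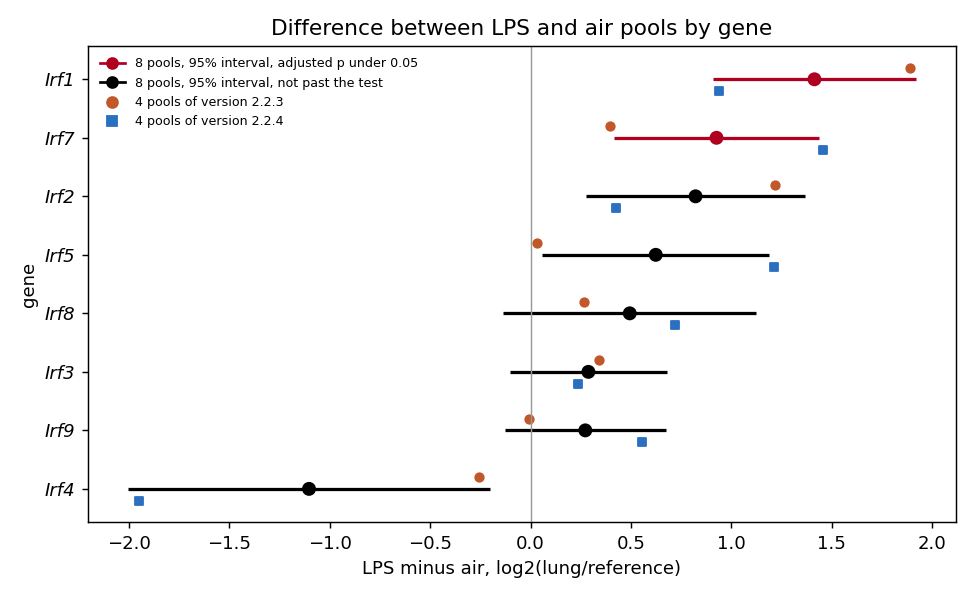
Difference between LPS and air pools for each gene in log2 units on the horizontal axis, as the value over 8 pools with its 95% interval, and as the value within the 4 pools of each version of the image-analysis program. Irf1 and Irf7 pass the test, and the values within the versions are farthest apart for Irf4 (-0.26 and -1.95) and closest for Irf3 (0.34 and 0.24).

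In order of size the differences were those of Irf1 (1.41), Irf7 (0.93), Irf2 (0.82), Irf5 (0.62), Irf8 (0.49), Irf3 (0.29), Irf9 (0.27) and Irf4 (-1.10). Neighbouring intervals overlapped from Irf1 down to Irf9, and differences between members were not tested. The interval of Irf1 (0.91 to 1.92) lay above those of Irf3 and Irf9, whose upper ends were 0.68 and 0.67. That of Irf4 lay wholly below those of the other 7 members.

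**Figure D3:**
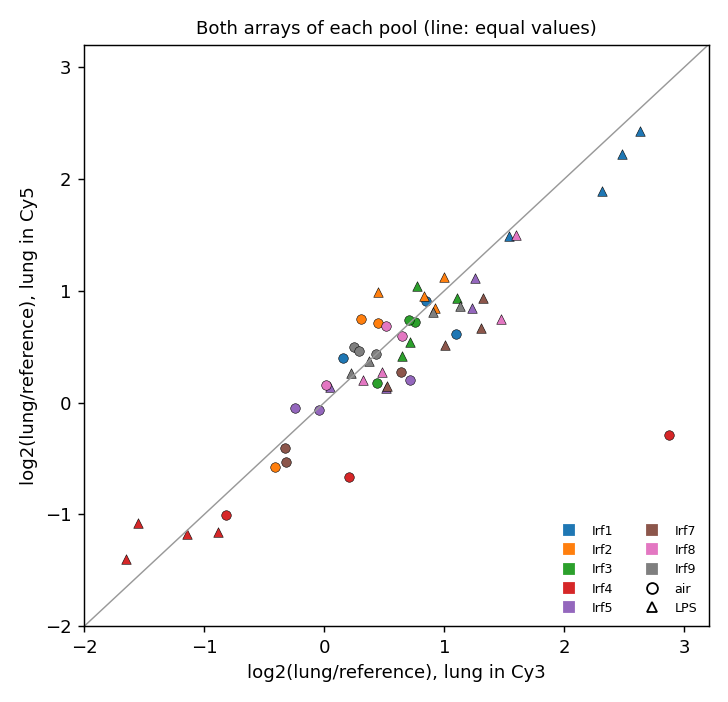
Level of each member on both arrays of a pool, log2(lung/reference) with lung in Cy3 on the horizontal axis and with lung in Cy5 on the vertical axis, for the 7 pools with both arrays, circles for air and triangles for LPS. Most points lie near the line of equal values, and Irf4 in air pool 2 lies far from it (2.87 against -0.29).

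Within the groups, the members' deviations from the group means are described here over 8 pools, 4 of each version of the image-analysis program, with no term for the version. Irf5 varied with Irf9 (r = 0.89) and with Irf7 (0.88), Irf8 with Irf9 (0.89) and with Irf3 (0.85), and Irf2 with Irf3 (0.80). Irf1 ran against Irf5 (-0.87) and against Irf7 (-0.79). Among 16329 other named genes, those whose levels over the 8 pools were most like those of Irf1 were Dcstamp (r = 0.997), needed for the fusion of macrophage-lineage cells, Sdcbp (0.993), which encodes the scaffold syntenin, and Mcfd2 (0.990), a cargo receptor subunit. For Irf7 they were Vav1 (0.981), an exchange factor of blood cells, the macrophage scavenger receptor Msr1 (0.974) and Ube2c (0.970), a ubiquitin-conjugating enzyme of mitosis. For Irf8 they were Plet1 (0.993), Ndnf (0.981) and the MHC class II chain H2-Ab1 (0.981). For Irf9 they were Acp5 (0.981), Cd83 (0.981) and Cd52 (0.981), and for Irf5 Cxadr (0.980), Mus81 (0.973) and Fga (0.970). The nearest to Irf2 were Pon2 (0.996), Pld3 (0.994) and Galnt4 (0.993), and to Irf3 4930430F08Rik (0.995), Slc20a2 (0.988) and Spock2 (0.988). Irf4 was followed most closely by 9030607L20Rik (0.983), Olfr191 (0.974) and Aldh7a1 (0.957). For Irf4 these correlations lean on air pool 2, which stood far above the rest at 1.29. Its 2 arrays gave 2.87 and -0.29, and the correlations were not computed without it. Of these 24 genes Sdcbp, Mcfd2 and Msr1 passed the test between LPS and air, by 1.41, 0.90 and 1.61. Mcfd2 lost its call without LPS pool 1 (0.81) or LPS pool 2 (0.83).

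Genes that act upstream of the family moved in part. Of 25 tested pattern sensors and adaptors, 6 rose, against 5.95% of all features, 0 fell and 19 did not pass, with a median of 0.30. The LPS co-receptor Cd14 rose by 1.84 ± 0.17 (limma adjusted p = 0.000159), the adaptor Myd88 by 1.07 ± 0.14 (0.00192) and the RNA sensor Ifih1 by 1.21 ± 0.19 (0.00513). The receptor Tlr4 differed by 0.25 ± 0.20 (adjusted p = 0.473) and Tbk1, the kinase that phosphorylates IRF3 and IRF7, by 0.50 ± 0.20 (adjusted p = 0.183). For Tlr4 the difference was -0.12 within version 2.2.3 and 0.63 within version 2.2.4, where it passed (limma adjusted p = 0.0456). The term between the versions did not pass for Tlr4 (limma adjusted p = 0.0791). For Tbk1 the difference was 0.94 within version 2.2.3 and 0.05 within version 2.2.4, and the term between them passed (adjusted p = 0.0403). Of 13 tested interferon and interferon receptor genes, the receptor chains Ifnar2 (0.66 ± 0.13) and Il10rb (0.69 ± 0.15) rose. Interferon beta (Ifnb1) was at -0.48 ± 0.15 (adjusted p = 0.0956), interferon alpha 1 (Ifna1) at -0.58 ± 0.16 (0.0616) and interferon gamma (Ifng) at 0.09 ± 0.17 (0.778). With the version as a block Ifna1 passed (adjusted p = 0.047), and it also passed without air pool 1 (-0.69). The median of that list was 0.09. The call of Il10rb was lost without LPS pools 1 or 3 or air pools 3 or 4, at 0.61 to 0.69.

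Among the partners of the family, 4 of 10 tested JAK and STAT genes rose, with a median of 0.32. The counts of this paragraph stand against 5.95% of all features called higher. Jak2 rose by 1.65 ± 0.16 (limma adjusted p = 0.000268), Stat2, which joins IRF9 in ISGF3, by 1.52 ± 0.17 (0.000632) and Jak1 by 1.05 ± 0.20 (0.0117). The rise of Jak1 was 1.52 within version 2.2.3, and its difference within version 2.2.4 was 0.58 (interaction adjusted p = 0.0494). Of 15 DNA-binding partners of IRF4 and IRF8, 3 rose (median 0.08), namely Batf (1.42 ± 0.20), Junb (0.76 ± 0.14) and the lymphoid factor Ikzf1 (0.80 ± 0.16). Spi1, which encodes PU.1, differed by 0.33 ± 0.15 (adjusted p = 0.22). Of 19 inhibitors and co-regulators, Socs3 (2.14 ± 0.19), a feedback inhibitor of cytokine receptors, and Trim30a (1.82 ± 0.32) rose, and the MHC class II activator Ciita was at 0.79 ± 0.21 (adjusted p = 0.0542), which passed with the version as a block (0.0421) and without air pool 2 (0.89). In this list the median was 0.20.

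Targets of the family are described on 3 lists. These were chosen with earlier results of these data known, so their counts were not tested. Over all features, 5.95% were called higher. Of 39 type I interferon and ISGF3 targets, 25 rose and 14 did not pass, with a median of 1.03. The antiviral enzyme Rsad2 rose by 2.80 ± 0.16, Ifi205 by 2.52 ± 0.18 and the mitochondrial nucleotide kinase Cmpk2 by 1.30 ± 0.12 (adjusted p between 1.36e-05 and 0.00018). Isg15 was at 0.61 ± 0.17 (adjusted p = 0.0637) and passed with the version as a block (adjusted p = 0.0172) and without air pool 2 (0.71). Of 36 IRF1 and interferon gamma targets, 16 rose and 20 did not pass, with a median of 0.78. The chemokines Cxcl10 and Cxcl9 rose by 5.44 ± 0.17 and 3.83 ± 0.22, and Cd274, the ligand of the inhibitory receptor PD-1, by 2.76 ± 0.14. Of 21 myeloid genes known to depend on IRF8 or IRF4, 6 rose and 15 did not pass, with a median of 0.07. They included the oxidase subunit Cybb (1.5 ± 0.13), the protease Ctss (2.06 ± 0.21) and the chitinase-like Chil3 (2.36 ± 0.28). In the fit without a block, limma called 0 genes of these 8 lists lower, against 0.713% of all features. With the version as a block it called 1 interferon gene, Ifna1, and 1 gene of the IRF8 and IRF4 list lower. Over all 20629 features, that fit called 467 lower. At an unadjusted p under 0.05, 2 interferon genes, 1 JAK-STAT gene and 2 of the IRF8 and IRF4 list were lower. The share of all features lower at that threshold was 7.72%.

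**Figure D4:**
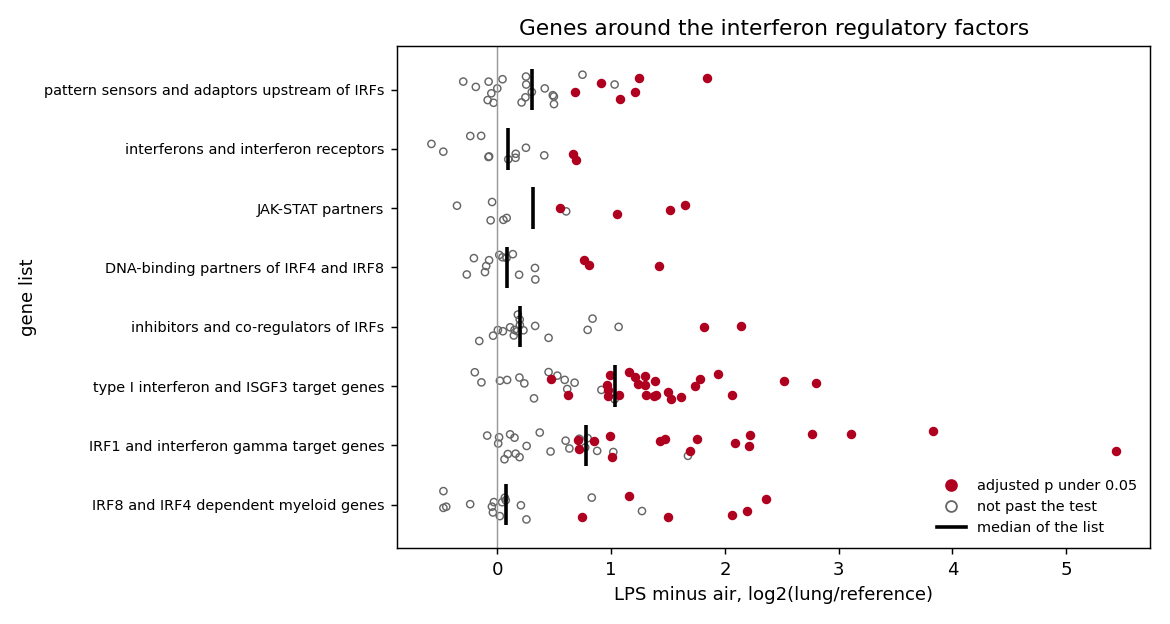
Difference between LPS and air in log2 units for every tested gene of the 8 lists around the family, filled where the adjusted p is under 0.05, with a bar at the list's median. The medians are highest for the type I interferon and ISGF3 targets (1.03) and the IRF1 and interferon gamma targets (0.78). The lists were chosen with earlier results of these data known, and differences between lists were not tested.

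Markers of the cells that a whole lung can hold are given here beside the members, and their part in the members' values was not tested. Their counts stand against 5.95% of all features called higher and 0.713% called lower. Of 12 macrophage and monocyte markers, 6 were higher, and the list's mean level was 1.89 to 2.36 in LPS pools and 0.63 to 1.39 in air pools. Of 11 neutrophil markers, 4 were higher, with means of 1.06 to 2.08 in LPS pools and 0.16 to 0.87 in air pools. These lists and the epithelial and endothelial list were higher in version 2.2.4 than in version 2.2.3 pools of both groups. In air pools the means were 1.29 against 0.80 (macrophage), 0.74 against 0.27 (neutrophil) and 3.03 against 2.25 (epithelial and endothelial), and in LPS pools 2.2 against 1.91, 1.75 against 1.08 and 3.42 against 2.35. Of 11 dendritic cell markers, Itgax (1.29 ± 0.25) and Bst2 (1.07 ± 0.20) were higher, of which Itgax is also on the macrophage list and Bst2 on the type I interferon target list. The median of that list was -0.03, and its mean level was 0.45 to 0.67 in LPS and 0.40 to 0.49 in air. In the fit without a block, Flt3 (-0.45 ± 0.17) and Clec9a (-0.48 ± 0.19) were lower only at an unadjusted p under 0.05. With the version as a block, limma called 1 marker of this list lower, against 467 of 20629 features. Within version 2.2.3 Flt3 passed (-0.75, limma adjusted p = 0.0191). Of 13 B and plasma cell markers, beside which Irf4 may be read, Xbp1 was higher (0.91 ± 0.22) and Tnfrsf13c lower (-0.56 ± 0.14). The list means were -0.54 to -0.35 in LPS and -0.47 to -0.35 in air. At an unadjusted p under 0.05, 4 of these markers were lower and 2 higher, against 7.72% and 14.8% of all features. With the version as a block, 3 were called lower and 1 higher, against 467 and 1798 of 20629 features. Without single pools, Xbp1 passed only in the fits without LPS pool 4 or air pool 1 (values 0.73 to 1.0 over the 8 fits), and Tnfrsf13c only in that without air pool 4 (-0.64 to -0.49). Of 17 T and NK cell markers limma called 0, with 2 higher and 1 lower at an unadjusted p under 0.05. Of 19 epithelial and endothelial markers, Pdpn was higher (1.34 ± 0.17), and the list mean was 2.32 to 3.47 in LPS and 1.98 to 3.07 in air. All these lists had 0 markers whose lung signal lay below the local background on most arrays.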

How the data were processed

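Lung RNA of 8 pools was measured on two-colour oligonucleotide arrays of 22575 spots. Per the file headers, TIGR Spotfinder 2.2.3 or 2.2.4 made the integrated intensity values from the Cy3 and Cy5 images, and the deposited intensity columns hold background-subtracted, unnormalised values beside the local background. A factor per spot (SF), a score that the deposited files do not define, was used in 1 alternative. The authors' deposited table of log2 ratios, whose normalisation and direction are not given in the sources used here, followed log2(lung/reference) on the 15 arrays used (r between 0.982 and 0.998, slopes of 0.961 to 0.997, column medians from -0.136 to 0.0889 over all arrays) and was used as an alternative.

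Spots at or below 0 in a channel were missing. With R 4.3.3 and limma 3.58.1, log ratios were loess-normalised within arrays, expressed as log2(lung/reference) and then averaged by pool. The dye-swapped arrays of a pool counted as 1 replicate. Features with at least 3 pools per group entered lmFit and eBayes. The two-sided p-values of all 20629 features were adjusted together (Benjamini-Hochberg), and calls were made under 0.05. This pipeline was tested on simulated data whose differences were larger than those of the members in the main comparison, with no effect of the version. How often it finds differences of the members' size was not tested. A gene was represented by its brightest probe. Probes were named from GEO's platform annotation (18218 with 1 symbol, 16 with several, 4341 with none), and 18175 were matched to RefSeq GRCm38.p6. Promoter sequences are RefSeq's on that build.

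The members and the 14 gene lists (281 genes, 244 tested, 20 on more than 1 list) were chosen with earlier results of these data known, so list counts are described and not tested. Genes named were the members, the 3 genes most correlated with each, the 3 list members with the smallest p and 10 fixed genes, of which 1 is not analysed here. The labels' pools come from different animals. Pool numbers were not used to pair the groups in the main fit. Deviations of same-numbered pools correlated between -0.263 and -0.0374. Each such pair joins pools of different versions of the image-analysis program, so these values cannot show whether the groups were paired. Alternatives covered arrays, normalisation, filters, probes, dyes, blocks and pools left out.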

Additional observations from a re-analysis of the deposited data

Results flagged for a closer look

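In the air pools, air pool 3 stood apart from the other air pools for 2 members. For Irf1 it was the lowest, and the gap to the nearest pool took 0.903 of the range of the 4 air pools. For Irf5 it was the highest, with a gap of 0.85 of the range. Both are above the 95% critical value of Dixon's test for 4 values, and about 5% of groups of this size pass it by chance, with 16 groups of members examined. Without air pool 3, Irf1 rose by 1.27 (limma adjusted p = 0.0157).

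The difference between LPS and air differed between the versions of the image-analysis program for 2 members (limma interaction), against 8.69% of all features. For Irf5 it was larger by 1.18 in the pools of version 2.2.4, and for Irf2 the term was -0.79. In LPS pools, all named for week 1, Irf5 was at 0.09 and 0.32 (version 2.2.3) and at 1.04 and 1.19 (version 2.2.4). Its air pools gave 0.46 and -0.11, and -0.15 and -0.06. For Irf2 the air pools gave -0.50 and -0.34 in version 2.2.3 and 0.58 and 0.53 in version 2.2.4. Its LPS pools gave 0.88 and 0.72, and 1.06 and 0.90. In the air pools the version and the week number in the image names coincide. A difference that lies in those pools, as that for Irf2 mostly did, cannot be assigned to either.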

How the results depend on the processing

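The number of features called moved from 1375 to 501 with all 16 arrays, 735 with median centring, 416 with lung in Cy3 alone, 2265 with the version as a block and 4707 in the version 2.2.3 pools, and to between 711 (without LPS pool 1) and 1262 without 1 pool. Leaving out LPS pool 2 (752), LPS pool 3 (829) or air pool 4 (766) also moved it by over 1.5 times. The number was 1168 with the authors' ratios, 1034 with lung in Cy5 alone and 1273 with scaling between arrays. It was 1644 without the air pool 2 array with lung in Cy3. Fitted with the pool number as a block, which pairs no animals, 857 were called and the same 2 members. The number of members called, 2, became 1 with all 16 arrays, with the authors' ratios and with lung in Cy5 alone, 0 with lung in Cy3 alone (4 at an unadjusted p under 0.05, limma), and 1 to 2 without 1 pool. It was 3, with Irf2 added (0.92, adjusted p = 0.042), with scaling between arrays, 3 with the version as a block (Irf2), and 3 without the air pool 2 array with lung in Cy3 (Irf4). Irf1 kept its direction in all 15 other alternatives (0.94 to 1.89) and its call in 13, losing it with lung in Cy3 alone (1.54) and in version 2.2.4. Irf7 kept its direction in all 15 (0.39 to 1.46) and its call in 10. Directions turned only for differences that were not called in the main comparison. In version 2.2.3 these were Irf9 (-0.0079), Ifng (-0.24), Tlr4 (-0.12), Aldh7a1 (0.036), Cxadr (-0.059), Fga (-0.11) and Cd83 (-0.11). With the authors' ratios it was Ifng (-0.036). Over all features, the number called higher ranged from 401 of 20167 with lung in Cy3 alone to 3003 of 20378 in version 2.2.3. It was 1228 of 20629 in the main comparison, and the list counts below move beside it. Genes called higher ranged over all alternatives from 17 to 28 for type I interferon targets (25 in the main comparison), 12 to 24 for IRF1 targets (16), 3 to 9 for sensors (6), 0 to 3 for interferons and receptors (2), 2 to 5 for JAK-STAT genes (4), 1 to 3 for DNA-binding partners (3), 1 to 6 for inhibitors (2), 3 to 8 for IRF8 and IRF4 dependent genes (6), 4 to 8 for macrophage (6), 0 to 5 for neutrophil (4), 0 to 2 for dendritic cell (2), 0 to 2 for B cell (1), 0 to 1 for T and NK cell (0) and 1 to 5 for epithelial and endothelial markers (1). The interaction between exposure and version was fitted in 1 way. The alternative without the air pool 2 array with lung in Cy3 was chosen after the data were seen.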
